A study of Mus musculus with 6 samples.

Results

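The transcripts of 10 genes of the YAP/TAZ pathway were followed in cultured primary tubular epithelial cells (TECs) of mouse kidney, the cells that line the nephron's tubules. The genes were taken by name and not by a cut on their values, though earlier results of these data were known. They are Yap1 and Wwtr1, which encode the coactivators YAP and TAZ, their DNA-binding partner Tead1, the regulators Lats2, Amotl2 and Ajuba, and the target genes Cyr61, Ctgf, Ankrd1 and Axl. All 10 were among the 30315 genes listed, Cyr61 and Ctgf under these names rather than the newer Ccn1 and Ccn2. All 10 also passed the minimum of a mean of 1 FPKM (fragments per kilobase of exon, scaled to the mapped fragments of the library) over the 6 libraries, together with 12009 genes in all.

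RNA-Seq covered 2 groups of C57BL/6 cells. One received siSox9, a small interfering RNA against the transcription factor Sox9, and the other received siNC, a negative control siRNA. Both groups went through H/R, an in vitro model of renal ischemia and reperfusion, with 6 h at 1% oxygen in medium without glucose and then 18 h of reoxygenation. Transfection came 12 h before H/R. Each group had 3 libraries, and no library without H/R was part of this comparison. The age of the mice was not given in the sources used here, and the labels did not say whether replicates came from separate animals or cultures, so the p-values measure the spread between these libraries, which may be technical. The labels name a single siRNA against Sox9.

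Sox9 was at 8.93, 8.61 and 9.07 FPKM in siSox9 replicates 1, 2 and 3 and at 25.7, 26.5 and 25.6 FPKM in the siNC replicates. It fell by 1.45 on the log2 scale (SE 0.034, limma adjusted p = 7.03e-06), to 34.2% of its siNC level, and ranked 1 of 2118 genes called lower. Implied library totals ran from 23893198 to 25725742 reads, so 1 read on 1 kb of exon was worth 0.0389 to 0.0419 FPKM. Across all tested genes 3650 of 12009 (30.4%) passed an adjusted p under 0.05, 1532 higher (12.8%) and 2118 lower (17.6%) with siSox9. This split was 1959 higher and 1765 lower when each library was centred on its median, and 1812 and 1797 after quantile normalization. The 6 general markers of tubule epithelium (Epcam, Cdh1, Krt8, Krt18, Pax8 and Pax2) were all expressed, summing to 3636 to 3793 FPKM with siSox9 and 3503 to 3708 with siNC. Krt8 and Krt18 made up most of these sums, with means of 2106 and 1224 FPKM over the 6 libraries. Pax8 and Pax2 averaged 14.9 and 11.4 FPKM. Of the 6 listed markers of the proximal tubule, 5 (Slc34a1, Cubn, Slc5a2, Aqp1 and Hnf4a) were under 1 FPKM in all 6 libraries, as were the 4 distal nephron and 2 podocyte markers. The remaining proximal marker, Lrp2, was at 2.29 to 2.58 FPKM with siSox9 and 2.06 to 2.23 with siNC. It did not pass (limma adjusted p = 0.157).

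The Hippo pathway is the main restraint on YAP and TAZ. The kinases MST1 and MST2 (Stk4 and Stk3), with the scaffold Sav1, switch on LATS1 and LATS2, which with the MOB1 proteins phosphorylate YAP and TAZ and keep them out of the nucleus. When this restraint is low, YAP and TAZ enter the nucleus, bind TEAD factors and raise the transcription of genes such as Cyr61, Ctgf and Ankrd1, and the pathway is known in kidney tubules for its part in regeneration and in fibrosis after injury. RNA-Seq reads transcript levels. It does not show where YAP or TAZ are in the cell or whether they are phosphorylated.

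The promoters were searched for the letters that TEAD factors are known to bind. TEAD factors recognise the letters GGAATG, or CATTCC on the opposite strand. RefSeq windows in build GRCm38.p6, each 300 bases long and ending 50 bases after a transcription start, matched 8 of the 10 genes (10 windows, with 2 each for Lats2 and Wwtr1). No window was matched for Ctgf or Tead1. The letters GGAATG or CATTCC were in 9 of the 10 windows and in at least 1 window of all 8 genes, against 14.7% of 32851 windows of the same length. The 2 Wwtr1 windows overlap over most of their length and hold the same match, which is counted in each. The SOX core letters AACAAT, or ATTGTT on the opposite strand, were in 1 of the 10 windows against 10.7% of all windows. That 1 was a Lats2 window, where AACAAT began at base 13 after the start and did not overlap the GGAATG that began at base 5.

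The windows below are those of the members that passed the test between the groups (Axl, Amotl2 and Wwtr1), of 2 of the most abundant targets (Cyr61 and Ankrd1) and of Lats2, the one gene with both motifs. Each reads 5′ to 3′ in the direction of the gene, and capitals mark GGAATG or CATTCC. They lie at chr7:25788684-25788983 (Axl, minus strand), chr9:102717554-102717853 (Amotl2, plus strand), chr3:57575861-57576160 (Wwtr1, minus strand), chr3:145649936-145650235 (Cyr61, minus strand), chr19:36119795-36120094 (Ankrd1, minus strand) and chr14:57746074-57746373 (Lats2, minus strand).
Axl: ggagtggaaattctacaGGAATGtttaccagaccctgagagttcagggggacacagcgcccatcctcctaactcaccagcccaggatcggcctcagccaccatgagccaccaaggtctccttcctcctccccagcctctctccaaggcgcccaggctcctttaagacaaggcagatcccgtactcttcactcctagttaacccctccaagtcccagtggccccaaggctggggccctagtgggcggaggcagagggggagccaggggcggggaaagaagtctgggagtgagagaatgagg
Amotl2: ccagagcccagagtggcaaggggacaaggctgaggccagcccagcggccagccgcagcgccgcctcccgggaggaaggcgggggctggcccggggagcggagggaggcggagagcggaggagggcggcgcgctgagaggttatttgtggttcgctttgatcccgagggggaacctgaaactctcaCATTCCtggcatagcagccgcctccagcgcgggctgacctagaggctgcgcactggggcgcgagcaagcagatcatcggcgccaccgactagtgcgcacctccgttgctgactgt
Wwtr1: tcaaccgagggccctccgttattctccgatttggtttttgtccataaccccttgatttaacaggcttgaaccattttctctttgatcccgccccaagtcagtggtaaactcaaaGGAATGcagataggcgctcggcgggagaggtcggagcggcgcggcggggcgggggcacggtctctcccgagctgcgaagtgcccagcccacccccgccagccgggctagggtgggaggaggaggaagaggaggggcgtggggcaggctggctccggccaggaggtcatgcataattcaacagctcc
Cyr61: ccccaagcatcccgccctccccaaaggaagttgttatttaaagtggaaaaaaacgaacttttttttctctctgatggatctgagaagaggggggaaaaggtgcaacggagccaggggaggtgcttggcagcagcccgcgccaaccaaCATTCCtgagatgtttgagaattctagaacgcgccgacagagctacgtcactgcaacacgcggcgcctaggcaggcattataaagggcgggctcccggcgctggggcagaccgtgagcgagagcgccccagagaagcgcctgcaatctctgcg
Ankrd1: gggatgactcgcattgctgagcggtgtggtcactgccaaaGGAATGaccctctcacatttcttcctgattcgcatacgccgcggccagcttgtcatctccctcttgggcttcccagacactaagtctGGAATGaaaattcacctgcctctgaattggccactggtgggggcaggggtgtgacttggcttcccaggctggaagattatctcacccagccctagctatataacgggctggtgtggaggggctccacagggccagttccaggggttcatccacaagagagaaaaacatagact
Lats2: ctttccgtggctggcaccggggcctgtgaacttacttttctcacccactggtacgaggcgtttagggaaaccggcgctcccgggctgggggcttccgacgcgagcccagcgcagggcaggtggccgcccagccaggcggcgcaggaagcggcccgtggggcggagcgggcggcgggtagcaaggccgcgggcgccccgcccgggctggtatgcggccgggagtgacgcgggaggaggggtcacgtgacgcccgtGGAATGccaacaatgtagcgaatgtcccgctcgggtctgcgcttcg
Counted from the start site, the first capital stood at base -233 in Axl, -65 in Amotl2, -136 in Wwtr1, -103 in Cyr61 and 5 in Lats2, and Ankrd1 had 2 matches, at -210 and -123. The windows of Yap1 (-141) and Ajuba (-186 and -164) held the letters too. A match describes the letters only. All 8 genes with a window held these letters, so no member shown to lack them was there to compare. Such genes were therefore bound to be found on both sides of the comparison and among the members that did not pass the test.

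Of the 10 members, 3 passed the threshold, which is 30.0% against 30.4% of all tested genes. Axl and Amotl2 rose with siSox9 (background 12.8%) and Wwtr1 fell (background 17.6%). The groups of 3 libraries did not overlap in 5 of the 10 members (Axl, Amotl2, Wwtr1, Yap1 and Ajuba), against 46.3% of all tested genes. The members' median difference was 0.013 on the log2 scale, against -0.014 over all tested genes. By count and by median, then, the 10 genes as a list were close to the rest of the transcriptome, and the largest differences belonged to single members.

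**Figure D1:**
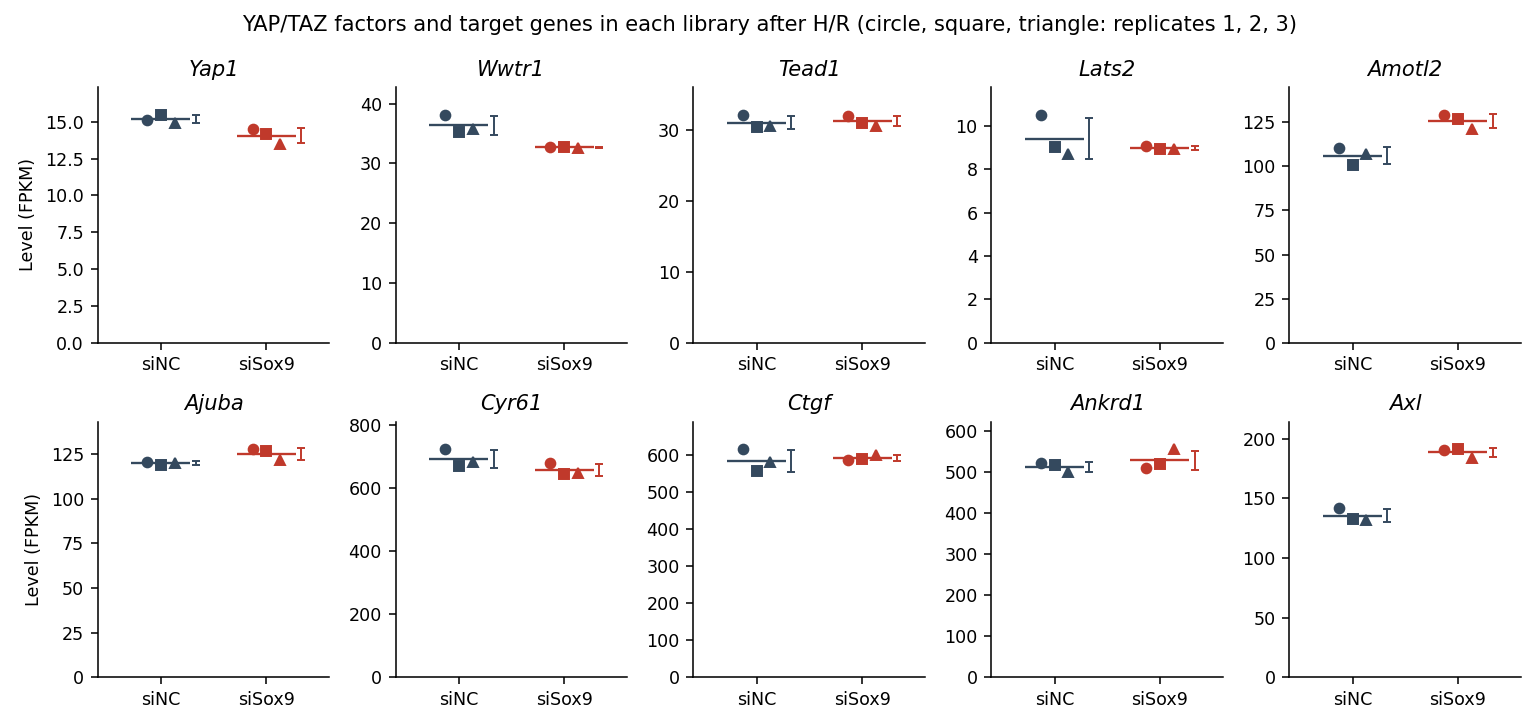
Level of each of the 10 genes in FPKM (y axis, from 0) in the 3 siNC and 3 siSox9 libraries; horizontal lines are group means, brackets are ± 1 SD (n = 3), and marker shapes give the replicate number. The siSox9 points of Axl (184 to 191 FPKM) and Amotl2 (121 to 129) lie above all siNC points (132 to 142 and 101 to 110.3), those of Wwtr1 (32.5 to 32.8) lie below them (35.2 to 38.1), and the points of Cyr61, Ctgf, Ankrd1, Lats2 and Tead1 overlap.

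In FPKM, which is scaled to exon length, the 3 classic targets were the most abundant members. In siNC the order of mean levels was Cyr61 (693 FPKM), Ctgf (584), Ankrd1 (513), Axl (136), Ajuba (119.7), Amotl2 (106), Wwtr1 (36.4), Tead1 (31.0), Yap1 (15.2) and Lats2 (9.43). Cyr61, Ctgf and Ankrd1 ranked 36, 43 and 48 of the 12009 tested genes by their mean over the 6 libraries, while Lats2 ranked 5187. No neighbours in this order overlapped in siNC. With siSox9 the order was the same except that Amotl2 and Ajuba, whose libraries then overlapped, changed places. The libraries of a group differed little, with a coefficient of variation from 0.458% to 10.3%, the highest for Lats2 in siNC. The siNC replicate 1 library was the highest of its group in 9 of the 10 members, against 40.6% of all tested genes, and siSox9 replicate 3 was the lowest of its group in 7 of 10, against 39.5%.

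The coactivators come first. Yap1 (ENSMUSG00000053110, chr9:7931999-8004596, minus strand) was at 14.5, 14.1 and 13.5 FPKM in siSox9 replicates 1 to 3 and at 15.1, 15.5 and 14.9 FPKM in siNC. Every siSox9 library was below every siNC library, yet the difference of -0.10 on the log2(FPKM + 1) scale (SE 0.036, limma adjusted p = 0.0674) missed the threshold, with a 95% interval from -0.19 to -0.02 before adjustment. The mean with siSox9 was 92.6% of the siNC mean. When whole reads were recovered from the FPKM values and tested with limma voom, the same gene passed, at -0.12 (adjusted p = 0.0204). Yap1 shares exon bases with Gm20416 on the opposite strand, and the strandedness of the libraries is not given in the sources used here.

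Wwtr1 (ENSMUSG00000027803, chr3:57455649-57575910, minus strand), the gene of TAZ, was at 32.7, 32.8 and 32.5 FPKM with siSox9 and at 38.1, 35.2 and 35.7 FPKM with siNC. The siSox9 values were all below the lowest siNC value and had a coefficient of variation of 0.458%. Wwtr1 fell by 0.15 on the log2 scale (SE 0.036, limma adjusted p = 0.0194), to 89.8% of siNC, and ranked 1907 of the 2118 genes called lower. The call was lost at nearly the same size without siSox9 replicate 1 (-0.15, adjusted p = 0.0594), replicate 2 (-0.15, 0.0629) or replicate 3 (-0.15, 0.0548), and it was lost with FPKM rescaled to an equal sum per library (-0.12, 0.199). The ratio of Wwtr1 to Yap1 within a library was 2.26, 2.32 and 2.40 with siSox9 and 2.52, 2.28 and 2.39 with siNC, and these ranges overlapped.

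Tead1 (ENSMUSG00000055320, chr7:112679318-112906807, plus strand), which carries YAP and TAZ to DNA, was at 32.0, 31.0 and 30.6 FPKM with siSox9 and at 32.1, 30.4 and 30.5 FPKM with siNC. The libraries of the groups were interleaved. The difference was 0.0077 (SE 0.035, limma adjusted p = 0.889), with a 95% interval for the ratio of siSox9 to siNC from 0.950 to 1.06 on the FPKM + 1 scale. Its sign turned with quantile normalization, in limma voom and without single libraries.

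Among the regulators, Amotl2 (ENSMUSG00000032531, chr9:102716672-102733418, plus strand) changed most. Amotl2 encodes a member of the angiomotin family, which binds YAP and holds it at cell junctions and in the cytoplasm, and it is itself a target of YAP and TAZ. It was at 129, 127 and 121 FPKM with siSox9 and at 110.3, 101 and 106.9 FPKM with siNC, so the lowest siSox9 library was above the highest siNC library. Amotl2 rose by 0.24 (SE 0.042, limma adjusted p = 0.00529), to 119% of siNC, and ranked 629 of the 1532 genes called higher. It kept its call under all 14 alternative settings, with values from 0.21 to 0.27.

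Lats2 (ENSMUSG00000021959, chr14:57689662-57758388, minus strand), a kinase that phosphorylates YAP and TAZ and a target of theirs, was at 9.10, 8.95 and 8.93 FPKM with siSox9 and at 10.5, 9.02 and 8.73 FPKM with siNC. Only siNC replicate 1 stood apart, and the groups overlapped. The difference was -0.057 (SE 0.064, limma adjusted p = 0.534), and without siNC replicate 1 it was 0.017. This was the member with the fewest reads, 1487 to 1823 per library, and the file's gene shares exon bases on its own strand with Gm49361, so its reads could have been divided between both.

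Ajuba (ENSMUSG00000022178, chr14:54567469-54577661, minus strand) encodes a LIM protein that binds LATS kinases and restrains them. It was at 128, 127 and 121 FPKM with siSox9 and at 121, 119 and 119.9 FPKM with siNC. The groups did not overlap, but siSox9 replicate 3 lay within 1 FPKM of siNC replicate 1. The difference of 0.063 (SE 0.030, limma adjusted p = 0.158) did not pass the threshold.

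Cyr61, Ctgf and Ankrd1, the targets most often used to read YAP and TAZ activity, did not pass the threshold in either direction. Cyr61 (ENSMUSG00000028195, chr3:145646976-145649981, minus strand) encodes a secreted matricellular protein. It was at 681, 647 and 650.2 FPKM with siSox9 and at 724, 671 and 683 FPKM with siNC. The highest siSox9 library lay between the siNC libraries, and the difference was -0.071 (SE 0.041, limma adjusted p = 0.231).

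Ctgf (ENSMUSG00000019997, chr10:24595442-24598683, plus strand) encodes the matricellular protein of the same family that is best known for its part in fibrosis. It was at 586, 589 and 599.5 FPKM with siSox9 and at 615, 557 and 579.9 FPKM with siNC. All 3 siSox9 values fell inside the siNC range, with a difference of 0.019 (SE 0.041, limma adjusted p = 0.760), which was -0.014 without siNC replicate 2. Ctgf shares exon bases with Gm15270 on the opposite strand.

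Ankrd1 (ENSMUSG00000024803, chr19:36111965-36119844, minus strand) encodes an ankyrin repeat protein of muscle sarcomeres and of stressed cells. It was at 509.9, 519 and 555 FPKM with siSox9 and at 523, 516 and 499.5 FPKM with siNC. One library, siSox9 replicate 3, was higher than the rest, and the other siSox9 libraries lay within the siNC range, with a difference of 0.041 (SE 0.041, limma adjusted p = 0.491). For these 3 genes the 95% intervals of the siSox9 to siNC ratio on the FPKM + 1 scale ran from 0.891 to 1.02 (Cyr61), from 0.947 to 1.08 (Ctgf) and from 0.962 to 1.10 (Ankrd1). Smaller differences than these bounds cannot be told from none with 3 libraries in each group.

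Axl (ENSMUSG00000002602, chr7:25757273-25788705, minus strand) behaved otherwise. Axl encodes a receptor tyrosine kinase that is activated by the ligand Gas6 and is transcribed under YAP, TAZ and TEAD in several cell types. It was at 190.5, 191 and 184 FPKM in siSox9 replicates 1 to 3 and at 142, 133 and 132 FPKM in siNC. The gap between the groups, from 142 to 184 FPKM, was wider than the spread inside either. Axl rose by 0.47 (SE 0.038, limma adjusted p = 0.000257), to 139% of siNC, and ranked 128 of the 1532 genes called higher. It kept its call under all 14 alternative settings, with values from 0.45 to 0.51, and it was the only member left when a minimum fold change was added after the data were seen.

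Axl is also a gene of macrophages. Of the 4 tested macrophage markers 1 rose too, against 12.8% of all tested genes called higher. The 5 markers (Adgre1, Csf1r, Cd68, Ptprc and Lyz2) summed to 103 to 114 FPKM with siSox9 and to 92.2 to 98.7 FPKM with siNC, without overlap. Taken singly, 46.3% of all tested genes did not overlap between the groups. Lyz2, which encodes lysozyme, rose (0.21, limma adjusted p = 0.0175) and made up most of the sum, at 80.5 to 87.8 FPKM with siSox9 and 68.0 to 75.5 with siNC. Adgre1, Cd68 and Csf1r did not pass and overlapped between the groups, and Csf1r was at 97.1% of its siNC level. Ptprc, which marks all leukocytes, was under 1 FPKM in all 6 libraries, at 90.2% of siNC. The part of such cells in the Axl result was not tested, and in bulk RNA fewer cells of a type and less RNA per cell cannot be told apart. The fibroblast markers summed to 6.24 to 7.76 FPKM with siSox9 and 7.72 to 8.79 with siNC, and those of endothelium to 2.76 to 2.99 and 3.15 to 4.01. The fibroblast sums overlapped, while the endothelium sums did not and were lower with siSox9.

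An exact permutation test of each member's 3 against 3 FPKM values cannot give a two-sided p under 0.1. That value was reached by the 5 members whose groups did not overlap. The exact permutation p was 0.2 for Cyr61, 0.5 for Ankrd1, 0.7 for Ctgf and 0.8 for Lats2 and Tead1.

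**Figure D2:**
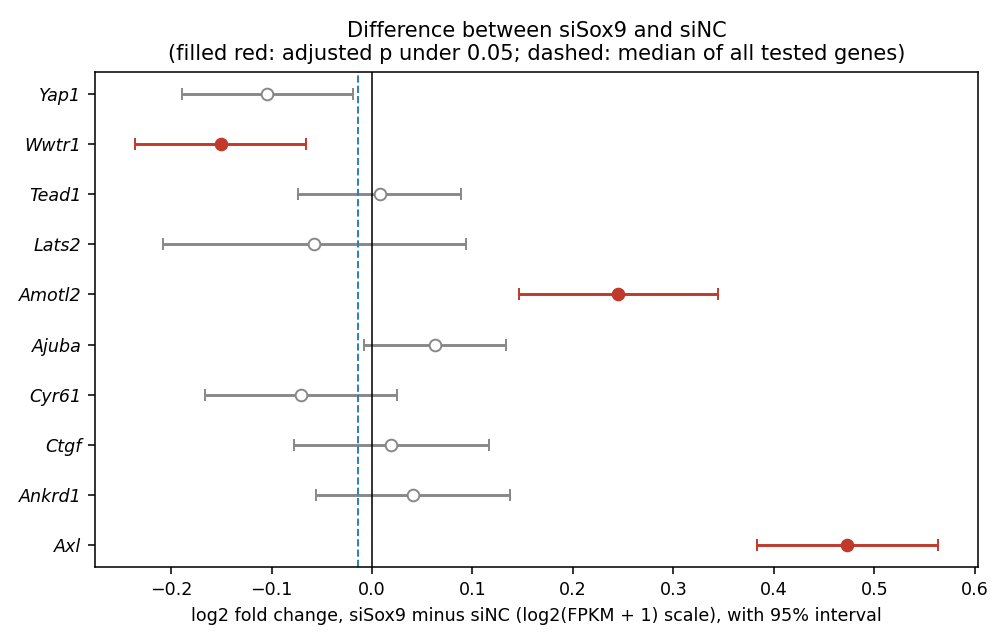
Difference between siSox9 and siNC for each of the 10 genes (x axis, log2 fold change on the log2(FPKM + 1) scale) with its 95% interval from limma before adjustment; filled red points passed an adjusted p under 0.05, and the dashed line is the median of all tested genes (-0.014). Axl (0.47) and Amotl2 (0.24) lie to the right and Wwtr1 (-0.15) to the left, and of the other 7 Yap1 lies farthest from 0, at -0.10.

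**Figure D3:**
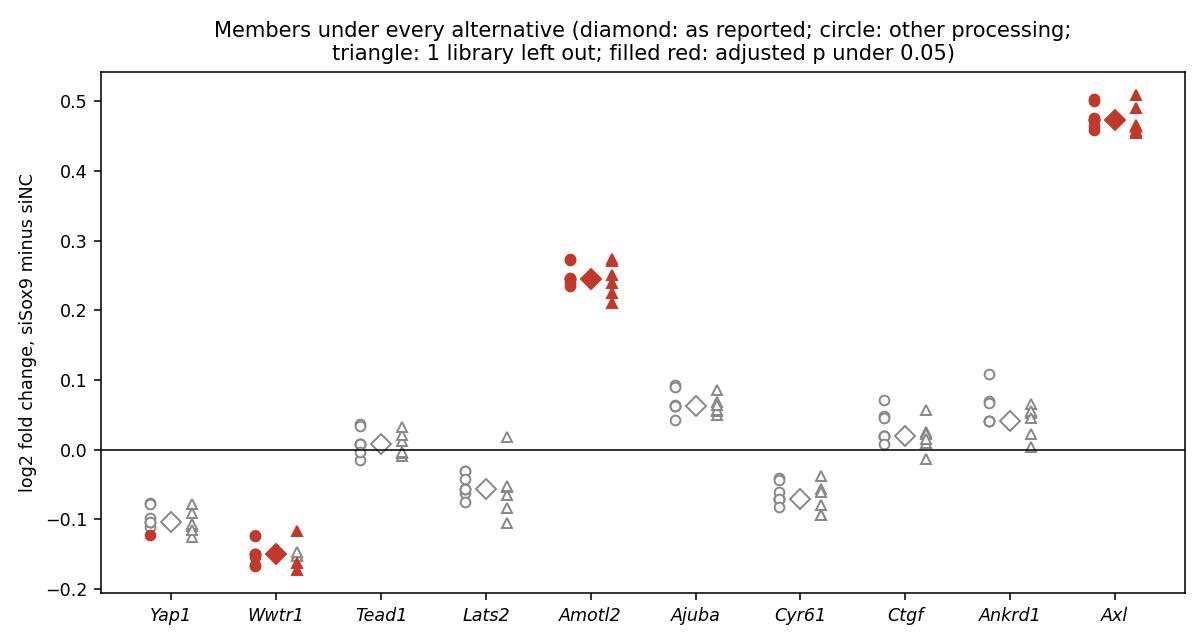
Log2 fold change of each gene (y axis) as reported (diamond), under other processing (circles) and with 1 library left out (triangles); filled red marks an adjusted p under 0.05. Every Axl and Amotl2 point is filled, Wwtr1 lies between -0.17 and -0.12 with 4 open points, and the points of Tead1, Ctgf and Lats2 fall on both sides of 0.

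Set against Cyr61 in the same library, which removes differences in scale between libraries, the targets also separated. The ratio of Axl to Cyr61 was 0.280, 0.296 and 0.283 with siSox9 and 0.197, 0.198 and 0.193 with siNC. The ratio of Amotl2 to Cyr61 was 0.190, 0.196 and 0.187 with siSox9 and 0.152, 0.151 and 0.156 with siNC. Neither set of ratios overlapped. The ratio of Ctgf to Cyr61 did not overlap either, at 0.860, 0.911 and 0.922 with siSox9 and 0.849, 0.831 and 0.848 with siNC, although siSox9 replicate 1 was close to siNC. Cyr61 itself averaged 95.2% of its siNC level with siSox9, which raises each of these ratios. In FPKM the siSox9 values of Ctgf lay inside its siNC range. Groups without overlap in FPKM were common, at 46.3% of all tested genes. These ratios were chosen after the values were seen, and no test was run on them.

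**Figure D4:**
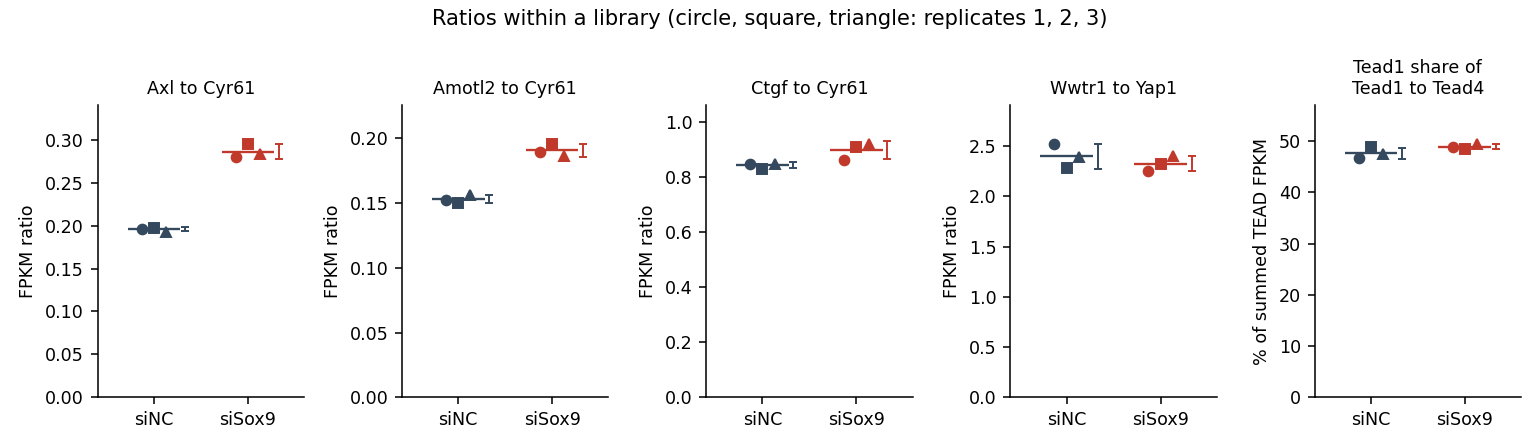
FPKM ratios within each library (y axes from 0; the last panel is the percent of summed Tead1 to Tead4 FPKM) for the 3 siNC and 3 siSox9 libraries; lines are means and brackets ± 1 SD (n = 3). Axl to Cyr61 is 0.280 to 0.296 with siSox9 and 0.193 to 0.198 with siNC, while Wwtr1 to Yap1 and the Tead1 share overlap.

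Of the Hippo kinases, adaptors and scaffolds upstream of YAP and TAZ, 20 of 22 listed genes were tested, and 2 (Fat4 and Dchs1) were under the minimum. In the list 4 of the 20 passed, all higher with siSox9, against 12.8% of all tested genes called higher and 30.4% called in either direction. The calls were not all higher in every setting. Limma voom called 4 higher and 1 lower, and without siNC replicate 3 the calls were 3 higher and 1 lower. By sign alone, 13 of the 20 were higher and 7 lower, against 5567 higher and 6442 lower among all tested genes. The median difference was 0.052 against -0.014 over all tested genes. Mob1b, a cofactor of the LATS kinases, was at 8.61, 8.77 and 8.45 FPKM with siSox9 and at 5.83, 5.74 and 5.74 with siNC. It rose by 0.51 (SE 0.034, limma adjusted p = 0.000128), to 149% of siNC. Its paralog Mob1a was at 47.2 to 48.9 FPKM with siSox9 and 45.35 to 47.25 with siNC and did not pass (adjusted p = 0.168), so Mob1b stayed the less abundant of the pair, at 0.173 to 0.186 of Mob1a with siSox9 and 0.121 to 0.128 with siNC.

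Stk4, the kinase MST1 at the head of the cascade, was at 34.4, 35.6 and 35.6 FPKM with siSox9 and at 29.55, 28.5 and 29.9 with siNC. It rose by 0.26 (SE 0.032, limma adjusted p = 0.00153), to 120.0% of siNC. Stk3, which encodes MST2, was at 13.4 to 13.6 FPKM with siSox9 and 13.7 to 14.3 with siNC, a difference of -0.040 (SE 0.032, adjusted p = 0.381) that did not pass. Lats1 (-0.078, adjusted p = 0.213) and Nf2, the membrane adaptor merlin (-0.060, adjusted p = 0.458), did not pass either. Mob1b and Stk4 kept their calls under all 14 alternative settings.

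The other 2 calls, named because the count was small and after their values were seen, were less firm. Amot, the founding angiomotin, rose by 0.14 (SE 0.029, limma adjusted p = 0.0116), and the call was lost without siSox9 replicate 2 (adjusted p = 0.0562). Frmd6, a scaffold of the FERM family, rose by 0.13 (SE 0.036, adjusted p = 0.0346), and the call was lost without siSox9 replicate 1 (0.113) or 2 (0.118), without siNC replicate 1 (0.0506), 2 (0.0951) or 3 (0.0798), and under 3 other settings. With Amotl2, 2 of the 3 angiomotin genes rose, and the third, Amotl1, was at 55.65 to 58.3 FPKM with siSox9 and 52.85 to 54.8 with siNC (0.086, adjusted p = 0.0751).

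None of the other TEAD factors and their Vgll cofactors passed. Of 7 genes, Vgll2 was not listed, Vgll1 was under the minimum, and limma called 0 of the 5 tested, with 0 at an unadjusted p under 0.05 and 0 of 3 called by limma voom, against 30.4% of all tested genes called. Tead2 was at 16.9, 17.3 and 16.2 FPKM with siSox9 and at 18.5, 15.9 and 16.8 with siNC. Tead3 was at 8.70, 8.265 and 8.02 against 10.2, 8.57 and 9.01 FPKM, and Tead4 at 7.95, 7.36 and 6.97 against 8.08, 7.49 and 7.93 FPKM. Tead1 made up about as large a share of the summed FPKM of Tead1 to Tead4 in both groups, 48.8%, 48.5% and 49.5% with siSox9 and 46.6%, 48.8% and 47.4% with siNC, with overlap.

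A list of 16 genes that are used to score YAP and TAZ activity moved in both directions. It includes Ptpn14, which is also counted in the Hippo list. Of the 15 tested (Foxf2 was under the minimum), 5 passed (33.3%, against 30.4% of all tested genes), 3 higher and 2 lower, with a median of 0.075. Crim1, a transmembrane protein that binds BMP growth factors, was at 55.5, 56.1 and 53.2 FPKM with siSox9 and at 76.2, 71.5 and 72.6 with siNC. It fell by 0.41 (SE 0.036, limma adjusted p = 0.000364), to 74.8% of siNC, and kept its call under all 14 alternative settings. So Crim1 and Axl, both counted as targets of YAP and TAZ, passed in opposite directions.

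The other 4 calls were named because the count was small and after their values were seen. Tgfb2, a ligand of the TGF-β family, fell by 0.23 (SE 0.056, limma adjusted p = 0.0209), from 21.5 to 24.3 FPKM in siNC to 18.3 to 20.2 FPKM with siSox9, and lost the call without siSox9 replicate 2 (0.0697) or 3 (0.0660), with FPKM rescaled to an equal sum per library (0.109) and with no filter on low values (0.0651). F3, the coagulation initiator tissue factor, rose by 0.11 (SE 0.035, adjusted p = 0.0484), from 448 to 467 FPKM in siNC to 482 to 512 FPKM. Igfbp3, which binds insulin-like growth factors, rose by 0.21 (SE 0.064, adjusted p = 0.0459), and Dock5, an activator of Rac, by 0.15 (SE 0.039, adjusted p = 0.0280). F3, Igfbp3 and Dock5 lost their calls under 8 of 14, 9 of 13 and 7 of 14 alternative settings, leaving out any 1 siSox9 library, or siNC replicate 2 or 3, among them, with adjusted p then between 0.0522 and 0.158. Igfbp3 also lost it without siNC replicate 1 (0.0885).

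**Figure D5:**
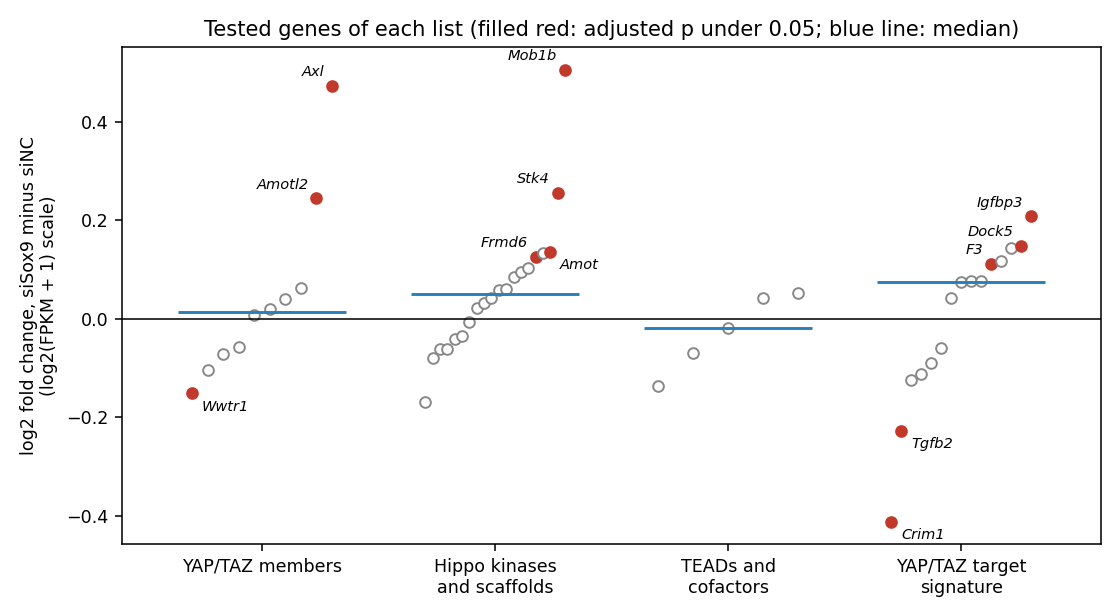
Log2 fold change (y axis, siSox9 minus siNC on the log2(FPKM + 1) scale) of every tested gene in the 4 lists; filled red points passed an adjusted p under 0.05, grey rings did not, and blue lines are list medians. The Hippo list has 4 filled points, all above 0 and led by Mob1b (0.51), the TEAD list has 0, and the target signature runs from Crim1 (-0.41) to Igfbp3 (0.21).

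Close relatives of the members were read from a list written after the members' values had been seen. Of its 17 genes 12 were tested and 4 passed (33.3%, against 30.4% of all tested genes), with Amot, Wisp1 and Gas6 higher and Pros1 lower. Lats1, Amot, Amotl1, Limd1, Wtip, Tead2, Tead3 and Tead4 were also in the Hippo or TEAD list, so the Amot call is counted again here. The tested genes found only in this list were Wisp1, Tyro3, Gas6 and Pros1, of which Tyro3 did not pass. Wisp1, a matricellular gene of the family of Cyr61 and Ctgf, was at 56.1, 58.3 and 53.2 FPKM with siSox9 and at 40.0, 38.6 and 40.0 with siNC. It rose by 0.49 (SE 0.040, limma adjusted p = 0.00027), to 141% of siNC, and its groups did not overlap. Within this family, then, Wisp1 passed and Cyr61 and Ctgf did not, while Nov and Wisp2 were under the minimum.

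Around Axl, its paralog Tyro3 was at 3.76, 3.65 and 4.13 FPKM with siSox9 and at 4.16, 3.70 and 3.675 with siNC, and did not pass (a difference of 0.0016, adjusted p = 0.987). Mertk, the third receptor of the family, was under the minimum. Gas6, the ligand of Axl, rose by 0.18 (SE 0.054, limma adjusted p = 0.0403), from 17.3 to 19.9 FPKM in siNC to 20.2 to 21.7 FPKM with siSox9. That call was lost without siSox9 replicate 1 (0.112) or 2 (0.125), without siNC replicate 1 (0.0771) or 2 (0.0990), with a replicate block (0.0754) and with no filter on low values (0.106). Pros1, the ligand of Tyro3 and Mertk, fell by 0.32 (SE 0.063, adjusted p = 0.00948), from 3.57 to 3.99 FPKM in siNC to 2.74 to 3.16 FPKM with siSox9. Of the 3 receptors only Axl passed, and the differences between receptors were not tested.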

How the data were processed

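RNA-Seq was performed on 6 libraries of mouse primary renal TECs, 3 with siSox9 and 3 with siNC. The deposited table gives FPKM, made by the authors, for each gene in each library. The submitters' processing notes name HISAT2 2.1.0, Bowtie2 2.2.3, TopHat2 and mm9 without giving their roles, while 93.3% of the 30246 listed genes found in GENCODE M21 had the same position there, so coordinates are those of the file, in GRCm38. The columns taken as siSox9 are named si3, which the labels do not explain, and were assigned by elimination, since siSox9 is the only siRNA in the labels beside siNC.

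Limma 3.58.1 in R 4.3.3 (lmFit, then eBayes with trend) was run on log2(FPKM + 1), with a pseudocount of 1, over genes averaging 1 FPKM or more, two-sided, with Benjamini-Hochberg adjustment over all 12009 genes and no replicate block. Fold changes on this scale understate those of low genes. Python 3.11.15 was used for the rest. Whole reads were recovered from FPKM and exon lengths for 93.3% of values (within 0.02 reads) and tested with limma voom as an alternative; those of Ankrd1 and Ajuba were not recovered. Simulated reads for the siSox9 against siNC comparison covered 10459 genes, of which 200 were changed. Limma called 167 of the 200 changed genes, 0 in the wrong direction, 74 of 76 changed by 2-fold, and 10 unchanged genes. The simulation gave all genes and libraries the same extra spread and changed a far smaller share of genes than was called here. Its counts are therefore not error rates of the real comparison. The share called among differences as small as those of most members was not tested. No 2 libraries of a group agreed within sampling noise, and siNC replicate 1 stood farthest from its group. On recovered reads its mean chi-square per gene was 6.50 against siNC replicate 2 and 6.85 against replicate 3. It was 2.65 between siNC replicates 2 and 3, and 1.89 to 3.90 within siSox9.

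Named genes were the 10 members, Sox9, Stk3, Stk4, Lats1, Nf2, Tead2, Tead3 and Tead4, and list genes past the threshold with an absolute log2 fold change of at least 0.3; others are marked where they stand. Members and lists were chosen with earlier results of these data known. Alternatives were a pseudocount of 0.1, no filter, a minimum of 5 FPKM, equal sums per library (TPM), median-centred and quantile-normalized values, a replicate block, limma voom, leaving out each library and, after the data were seen, a minimum fold change.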

Additional observations from a re-analysis of the deposited data

How the results depend on the processing

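Apart from the added minimum fold change, the member count stayed within 2 to 4, and Axl, Amotl2, Mob1b, Stk4 and Crim1 kept their calls in each setting. The minimum, added after the data were seen, left 1 member and 1691 genes. Leaving out each library in turn gave 2424 to 3654 genes in all, 2 to 5 Hippo genes and 1 to 5 target signature genes. The lowest count of each came without siSox9 replicate 2, and the highest of each without siNC replicate 1. With any other library left out, at most 2849 genes passed. The target signature count of 5 became 1 with no filter on low values, 1 with TPM, 8 with median-centred values, 8 in limma voom and 3 with the replicate block; the cause was not tested. With the replicate block 3262 genes passed, 3 of them members. The numbers were not taken as pairs because the study names an unpaired test. In a later check, samples with the same number did not deviate together (correlations of 0.0649, -0.0504 and 0.00784). Signs turned only for differences near 0 that were not called: Tead1 was -0.014 after quantile normalization and -0.0038 in limma voom, Tead2 was 0.0091 with TPM and 0.0081 median-centred, and without single libraries Ctgf ran from -0.014 to 0.057, Lats2 from -0.11 to 0.017, Tead1 from -0.0098 to 0.033 and Tead2 from -0.066 to 0.037. Ankrd1, Ajuba, Stk3, Tead3, Vgll3, Ccdc80 and Wisp1 had no limma voom value. The members held at least 1487 reads in each library, except Ankrd1 and Ajuba, whose reads were not recovered. The limits are 3 libraries in each group, a single siRNA against Sox9, no library without H/R, and transcript levels alone.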
